A study of Mus musculus with 12 samples.

Results

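Mitochondrial ribosomes are assembled from RNAs encoded in the mitochondrial genome and from proteins that are encoded in the nucleus, translated in the cytosol and imported. They translate the few mitochondrial messages, which encode core subunits of the respiratory chain and of ATP synthase, so the nuclear genes for their proteins set part of the capacity for oxidative metabolism. A T cell that leaves quiescence grows and enlarges its mitochondria before it divides, and mitochondrial translation is known to be needed for effector function in CD8 T cells.

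The genes described here are those whose symbol begins with Mrpl or Mrps followed by a number, for proteins of the large and small subunit of the mitochondrial ribosome. They were chosen by name from the probe annotation, as every probe set whose only gene symbol has that form. This gave 156 of 45037 probe sets and 76 of 18193 genes. All 76 genes passed the filter on dim signals, which 13158 genes passed in all. By the subunit in which their protein sits, 49 belong to the large and 26 to the small subunit. The last, Mrps36, carries the name but encodes a component of the 2-oxoglutarate dehydrogenase complex rather than a ribosomal protein.

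RNA came from CD8 T cells purified from the spleens of male mice, 3 per genotype. All mice carried Cre driven by the Cd4 promoter, which is active in developing T cells and so acts on CD4 as well as CD8 T cells. The control group, called WT, was Cd4-Cre/Scap+/+ and came from littermates of the group called KO, which was Cd4-Cre/Scapfl/fl. Scap encodes the protein that escorts the SREBP transcription factors, activators of sterol and fatty acid synthesis genes, to the Golgi where they are cleaved. Cells of each genotype were quiescent (T0) or had been activated for 6 h by anti-CD3 bound to the plate together with anti-CD28 in the medium (T6), and each of the 4 groups had 3 Affymetrix arrays. The comparisons therefore ask how these genes differed between T0 and T6 in either genotype, whether the genotypes differed at either time, and whether the change differed between them. No group was cultured for 6 h without the antibodies, so activation cannot be told apart from time in culture. Below, activation stands for T6 against T0.

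Values are log2(signal + 16), where the signal is the linear intensity scaled to a common level on each array. Array medians lay between 61.3 and 76.2 on the linear scale. The more abundant Scap probe set read 11.26 ± 0.25 in WT T0 and 11.01 ± 0.23 in KO T0 (SD, n = 3). At T6 it read 11.57 ± 0.02 and 11.10 ± 0.04 in the same order. The difference at T6 was -0.47 (SE 0.14) and was not called by limma (adjusted p = 0.273). The KO arrays at T6 all lay below the WT arrays at T6, while those at T0 overlapped. Which exons of Scap are floxed is not given in the labels, so how far this reading checks the genotype labels is not known.

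Signals of other cell types were present and moved with the groups. The summed signal of 12 measured myeloid markers ranged from 21991 to 26214 in WT T0 and from 1516 to 5019 in WT T6, and from 28316 to 37995 in KO T0 and from 4159 to 7780 in KO T6. That of 12 measured B cell markers ranged from 14327 to 26177, 4784 to 11746, 24972 to 42634 and 15183 to 25390 in the same order. On activation 10 of 12 myeloid markers fell in each genotype, and 5 of 12 B cell markers fell in WT and 0 in KO by limma, where 2 had an unadjusted p under 0.05. The 3 measured erythroid markers, summed, were highest in KO replicate 2 at both times (41738 at T0 and 43263 at T6). Of 10 measured T cell identity markers, which include Cd3g, Cd8a and Cd8b1, 4 fell in WT and 5 in KO. In such bulk samples fewer cells of a type and less RNA per cell cannot be told apart.

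Activation of WT cells came with small rises in part of the mitochondrial ribosomal protein genes. Of the 76 genes, 21 rose and 2 fell (limma, Benjamini-Hochberg adjusted p under 0.05). Among all genes tested 11.3% rose and 13.8% fell, 25.1% together. The log2 change was positive for 60 of the 76, with a median of 0.20, against -0.06 for all genes tested. The middle 50% of the members lay between 0.01 and 0.35. Rises ranged from 1.18-fold to 2.80-fold, and 4 of the 21 reached 1.5-fold. The T0 and T6 arrays did not overlap for 42 of the 76 members, a condition that 42.8% of all genes met. The members were brighter than the genes they are set against, with a mean of 10.74 in WT T0 against 8.86 for all genes. With the filter on dim signals raised to percentile 60, 25 members rose and 3 fell in WT, where 17.1% of all genes rose. The part of brightness in the counts was not tested.

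**Figure D1:**
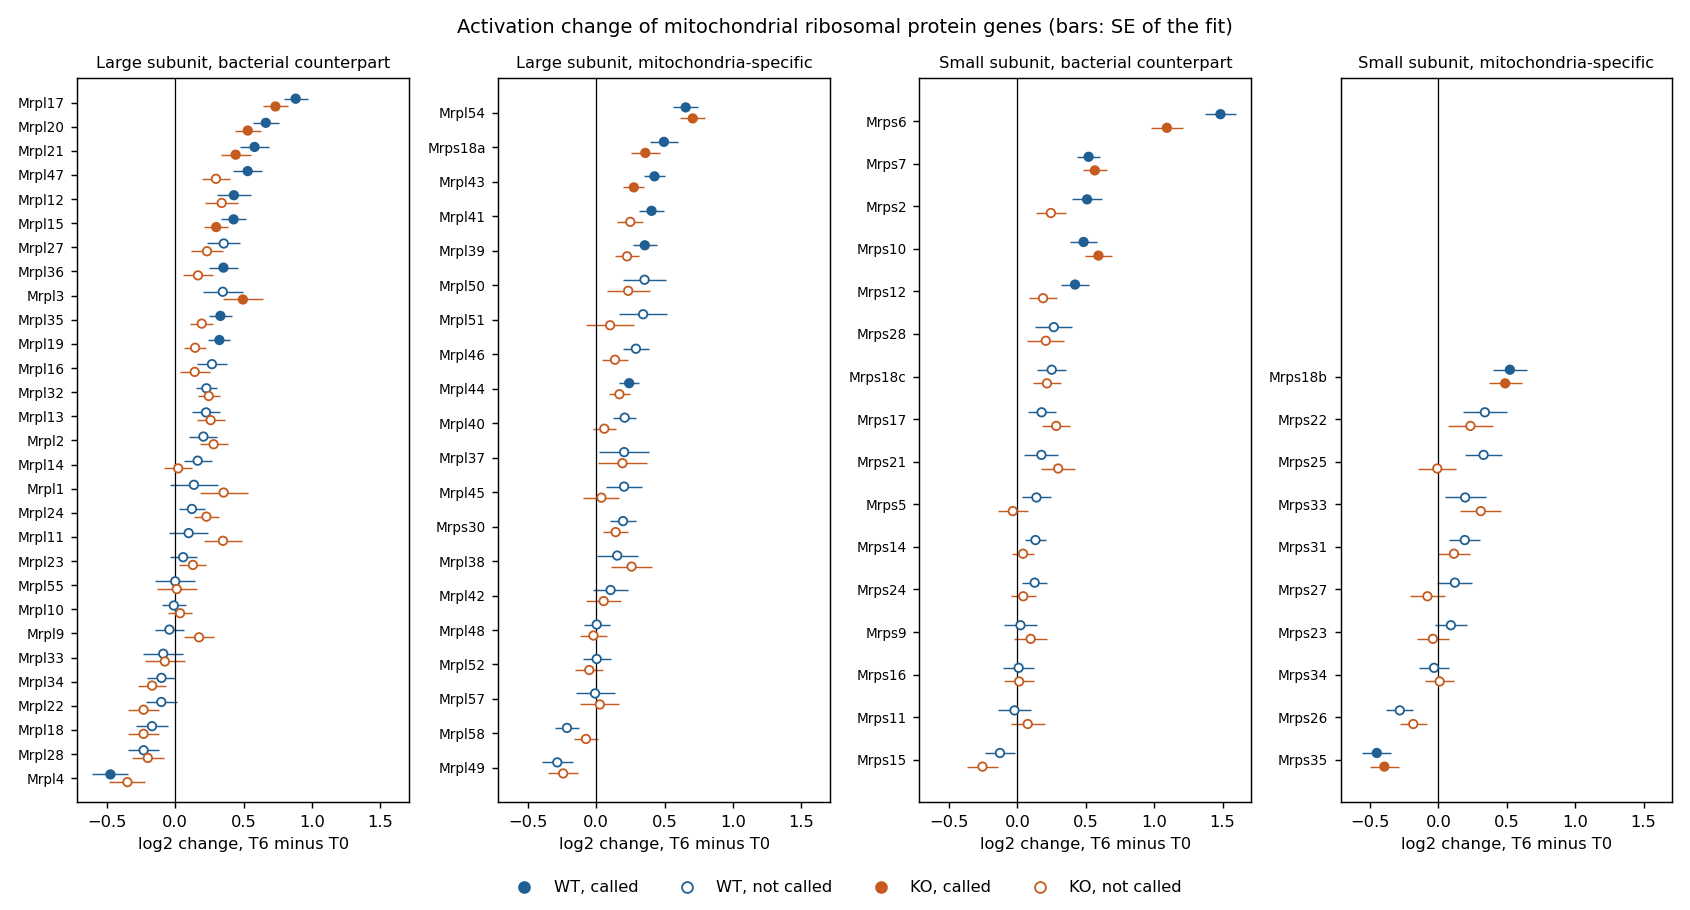
Log2 change on activation (T6 minus T0, horizontal axis) of the 75 members that encode subunit proteins, in WT (blue) and KO (orange), by subunit and by whether the protein has a bacterial counterpart. Mrps18a and Mrps18b are placed among the mitochondria-specific proteins although they resemble a bacterial protein. Filled points passed the limma test at an adjusted p under 0.05, and bars are the SE of the fit. Mrps6 stands apart at 1.48 in WT and 1.09 in KO, and Mrpl4 and Mrps35 lie lowest.

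Mrps6, the counterpart of the bacterial small subunit protein S6, had the largest rise of all members. It read 10.50, 10.45 and 10.31 in WT T0 and 11.96, 11.87 and 11.89 in WT T6, and 10.33, 10.69 and 10.45 in KO T0 and 11.73, 11.44 and 11.58 in KO T6. All T6 arrays lay above all T0 arrays, and the WT T6 arrays lay above the KO T6 arrays. The change was 1.48 in WT (SE 0.12, adjusted p = 2.0e-05), which is 2.80-fold, and 1.09 in KO (SE 0.12, adjusted p = 1.6e-04), which is 2.13-fold. Its other probe set gave 1.36 in WT and 1.02 in KO. Mrps6 overlaps the inositol transporter gene Slc5a3 in the annotation, whose own probe set rose by 1.91 in WT (SE 0.28, adjusted p = 9.6e-04). Whether the Mrps6 probe sets also read Slc5a3 transcripts was not tested.

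Mrpl17, which encodes the counterpart of bacterial L17, was next. It read 10.99, 10.97 and 11.05 in WT T0 and 11.99, 11.79 and 11.87 in WT T6, and 11.07, 11.12 and 11.04 in KO T0 and 11.80, 11.71 and 11.92 in KO T6. The times did not overlap in either genotype, and the genotypes overlapped at T6. It rose by 0.88 in WT (SE 0.09, adjusted p = 9.8e-05) and by 0.73 in KO (adjusted p = 3.6e-04). Its 2 dimmer probe sets gave -0.52 and 0.99 in WT and 0.15 and 0.49 in KO, and the mean over all 3 changed by 0.45 in WT (limma, adjusted p = 0.0614) and 0.46 in KO (adjusted p = 0.0664), not called in either.

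Mrpl20, the counterpart of a bacterial protein that binds early in assembly of the large subunit, read 10.72, 10.74 and 10.83 in WT T0 and 11.43, 11.41 and 11.43 in WT T6, and 10.89, 11.09 and 10.77 in KO T0 and 11.51, 11.40 and 11.43 in KO T6. It rose by 0.66 in WT (SE 0.09, adjusted p = 8.1e-04) and by 0.53 in KO (adjusted p = 0.0033), with no overlap between times. The mitochondria-specific protein gene Mrpl54 read 10.16, 10.35 and 10.13 in WT T0 and 10.80, 10.88 and 10.92 in WT T6, and 10.29, 10.32 and 10.18 in KO T0 and 10.99, 10.92 and 11.00 in KO T6. Its rises of 0.65 in WT (adjusted p = 6.3e-04) and 0.71 in KO (adjusted p = 4.8e-04) were the only pair among these first 4 genes in which the KO value was the larger. The mean over the probe sets of Mrpl54 changed by 0.34 in WT, which was not called (limma, adjusted p = 0.160), and rose by 0.75 in KO.

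Mrpl21 read 10.33, 10.42 and 10.44 in WT T0 and 11.00, 10.94 and 10.99 in WT T6, and 10.36, 10.71 and 10.40 in KO T0 and 10.83, 10.92 and 11.05 in KO T6. It rose by 0.58 in WT (SE 0.11, adjusted p = 0.0037) and by 0.44 in KO (adjusted p = 0.0164). Its probe sets disagreed: a dimmer one gave -0.32 in WT and -0.37 in KO, and another gave -0.25 and 0.64, so that the mean over its probe sets changed by 0.00 in WT and 0.24 in KO, neither called. Mrpl47, whose bacterial counterpart lies at the exit of the peptide tunnel, read 10.66, 10.79 and 10.69 in WT T0 and 11.21, 11.26 and 11.25 in WT T6, and 10.78, 11.10 and 10.72 in KO T0 and 11.16, 11.12 and 11.20 in KO T6. It rose by 0.53 in WT (adjusted p = 0.0049), and its change of 0.30 in KO missed the threshold (adjusted p = 0.0731), with KO T0 replicate 2 close to the T6 arrays. With its probe sets averaged the calls were the other way round, at 0.37 in WT (limma, adjusted p = 0.120) and 0.58 in KO (adjusted p = 0.0260).

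Mrps7, which encodes a protein of the head of the small subunit, read 10.39, 10.35 and 10.45 in WT T0 and 10.95, 10.92 and 10.89 in WT T6, and 10.41, 10.55 and 10.30 in KO T0 and 10.95, 11.03 and 10.97 in KO T6. It rose by 0.52 in WT (adjusted p = 0.0018) and by 0.57 in KO (adjusted p = 0.0013), with the times apart in both. Of the other small subunit genes with a bacterial counterpart, Mrps2 (0.51), Mrps10 (0.48) and Mrps12 (0.42), whose counterpart takes part in decoding, rose in WT. Mrps10 also rose in KO (0.59, adjusted p = 0.0020).

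**Figure D2:**
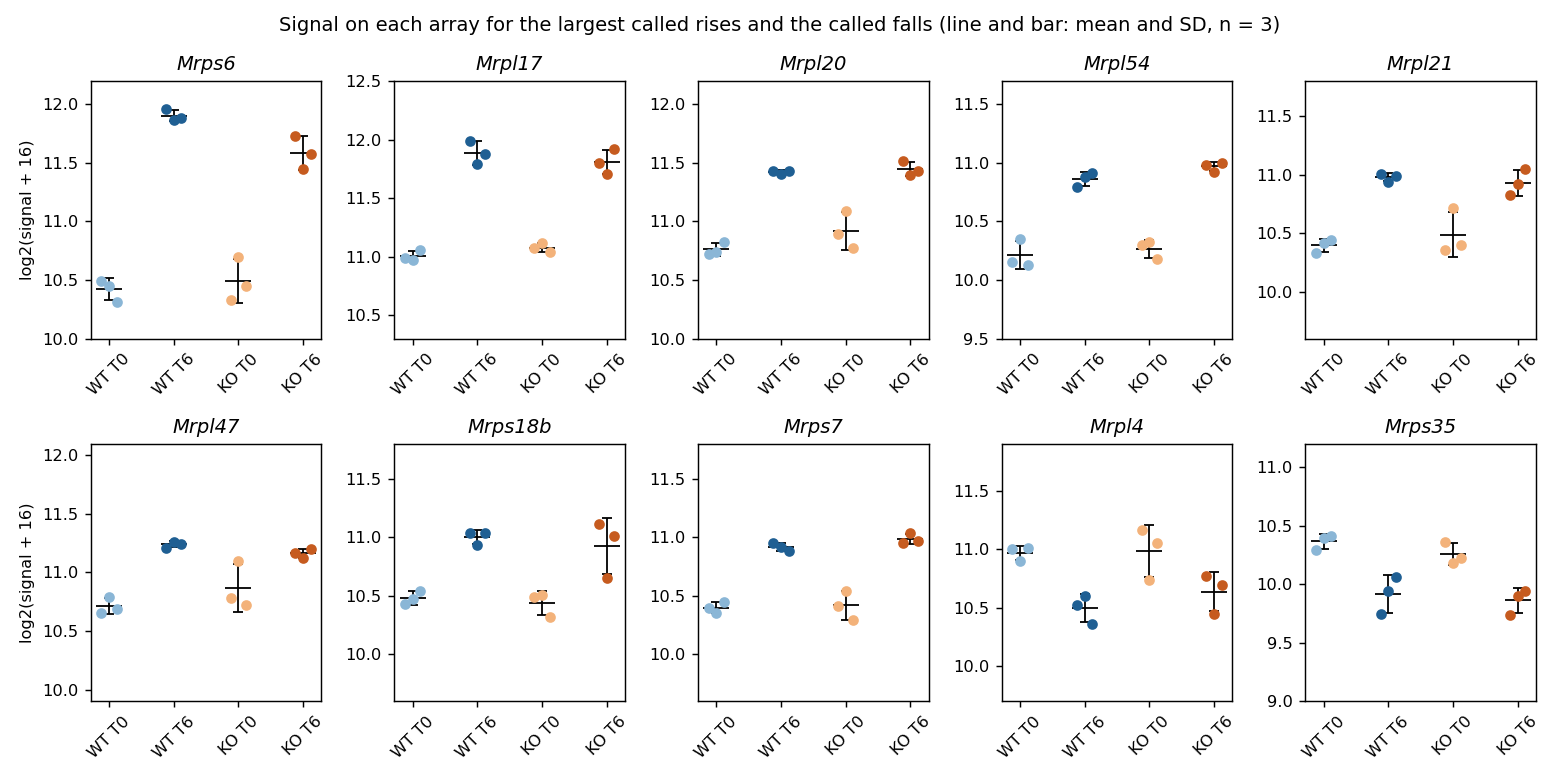
Log2(signal + 16) on each of the 12 arrays (vertical axis, the same 2.2-unit span in each panel) for the 8 largest rises and the 2 falls in WT. Points are arrays, lines are group means and bars are SD (n = 3). The T0 and T6 points do not overlap in WT in any panel, and in KO they overlap in the Mrpl4 panel.

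The Mrps18 family has 3 members that all resemble bacterial S18 and sit at different places in the ribosome, Mrps18a in the large subunit and Mrps18b and Mrps18c in the small. Mrps18b read 10.43, 10.47 and 10.54 in WT T0 and 11.04, 10.94 and 11.04 in WT T6, and 10.49, 10.50 and 10.32 in KO T0 and 11.11, 10.65 and 11.02 in KO T6. It rose by 0.52 in WT (adjusted p = 0.0112) and by 0.49 in KO (adjusted p = 0.0173). Mrps18a read 10.63, 10.77 and 10.92 in WT T0 and 11.26, 11.27 and 11.26 in WT T6, and 10.79, 11.09 and 10.87 in KO T0 and 11.35, 11.25 and 11.23 in KO T6. It rose by 0.49 in WT (adjusted p = 0.0070) and by 0.36 in KO (adjusted p = 0.0358). Mrps18c read 11.23, 11.06 and 11.04 in WT T0 and 11.36 on all 3 WT T6 arrays, and 11.35, 11.26 and 11.15 in KO T0 and 11.28, 11.59 and 11.54 in KO T6. Its changes of 0.25 in WT (adjusted p = 0.111) and 0.22 in KO (adjusted p = 0.185) missed the threshold. All 3 genes were apart between times in WT, and Mrps18c alone overlapped in KO.

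In WT Mrpl4 and Mrps35 were the 2 members that fell. Mrpl4, whose bacterial counterpart lines the peptide tunnel, read 11.00, 10.90 and 11.01 in WT T0 and 10.52, 10.60 and 10.36 in WT T6, and 11.17, 10.73 and 11.05 in KO T0 and 10.77, 10.45 and 10.69 in KO T6. It fell by 0.47 in WT (SE 0.13, adjusted p = 0.0252), and in KO, where the times overlapped, the change was -0.35 (adjusted p = 0.0928). Mrps35, which has no bacterial counterpart, read 10.29, 10.39 and 10.41 in WT T0 and 9.75, 9.94 and 10.06 in WT T6, and 10.36, 10.18 and 10.23 in KO T0 and 9.74, 9.90 and 9.94 in KO T6. It fell by 0.45 in WT (adjusted p = 0.0120) and by 0.39 in KO (adjusted p = 0.0250), with no overlap in either genotype.

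The members were also counted by subunit and by whether the protein has a bacterial counterpart, beside the 11.3% of all genes that rose. In WT 15 of the 49 large subunit genes rose and 1 fell, with a median change of 0.21, and 6 of the 26 small subunit genes rose and 1 fell, with a median of 0.18. Of the 29 large subunit genes with a bacterial counterpart 9 rose and 1 fell. Besides those named above these were Mrpl12 (0.43), the stalk protein that contacts translation factors, Mrpl15 (0.43), Mrpl36 (0.35), Mrpl35 (0.33) and Mrpl19 (0.32). Of the 20 mitochondria-specific large subunit genes 6 rose and 0 fell by limma. An unadjusted p under 0.05 was found for 11 of the 20 and for 4798 of all 13158 genes. The 6 included Mrpl43 (0.43), Mrpl41 (0.40), Mrpl39 (0.35) and Mrpl44 (0.24). Of the 16 small subunit genes with a bacterial counterpart 5 rose, and of the 10 mitochondria-specific ones Mrps18b rose and Mrps35 fell. Mrps18a and Mrps18b were placed in the mitochondria-specific classes although they resemble a bacterial protein. No test of a difference between these classes was made.

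Each gene was read by its brightest probe set. Of the 76 genes 42 had several, with 74 further probe sets above the filter, and 55 of these had the sign of the brightest in WT. For 13 genes called in WT there were 24 further probe sets, of which 17 had the same sign and 5 were themselves called. When a gene was instead read as the mean of its probe sets, 13 members rose and 2 fell in WT. Of all genes 10.5% rose in that reading.

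The RNA quality and the cell makeup of the arrays moved with activation as well. At T6 the RNA quality measure also differed between genotypes without overlap. The log2 difference between the 3′ and 5′ control probe sets of Actb lay between 0.22 and 0.37 in WT T0 and between 0.45 and 0.54 in WT T6, and between 0.23 and 0.51 in KO T0 and between 0.62 and 0.79 in KO T6. With this difference as a covariate 6 members rose in WT, against 4.94% of all genes, and the median of the members was 0.18 against -0.05 for all genes. With the mean of the B cell, myeloid and erythroid markers as a covariate 1 member rose in WT, against 0.547% of all genes, and the median of the members was 0.16 against -0.02 for all genes. The member that kept its call was Mrps6. Beyond these fits the part of either in the result was not tested. With each array centred on its median, which moves the median of all genes up by 0.12 in WT, 28 members rose and 0 fell. Of all genes 14.5% rose in that fit.

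KO cells changed in the same direction on activation. In KO 12 members rose and 1 fell, where 10.4% of all genes rose and 10.4% fell, 20.9% together. The log2 change was positive for 59 of the 76, with a median of 0.17, against 0.00 for all genes. The median was 0.17 for the large subunit genes, of which 8 rose and 0 fell by the test. An unadjusted p under 0.05 was found for 20 of them and for 4308 of all 13158 genes. For the small subunit genes, of which 4 rose and 1 fell, the median was 0.11. The times did not overlap for 34 members, against 36.5% of all genes. The count was lower in some fits with 1 array left out. It was 7 without KO T0 replicate 1, 6 without KO T0 replicate 3 and 6 without KO T6 replicate 3. The share of all genes that rose was lower too, at 8.34%, 7.996% and 7.22% in the same order. Without KO T0 replicate 2, 15 members and 9.15% of all genes rose. The cause of these shifts was not tested. With the replicate number as a block in KO 12 rose and 2 fell, Mrpl4 (-0.35) being the gene added. Without replicate 2 at both times, the arrays with the highest erythroid signal, 15 rose and 0 fell. With the RNA quality covariate 1 rose and with the composition covariate 0 rose, against 0.836% and 1.02% of all genes.

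WT and KO activation were measured on different arrays, and their calls are set side by side here. The calls are not independent, because the fit gave each gene a single spread estimated over all 12 arrays. With only the groups of the comparison fitted, 19 members rose in WT and 6 in KO. Of all genes 9.74% rose in WT and 6.98% in KO in these fits. The overlap below is that of the main fit. Of the 21 genes that rose in WT, 11 (52.4%) also rose in KO, and these were 91.7% of the 12. The gene called in KO only was Mrpl3, the counterpart of bacterial L3, which read 10.61, 10.79 and 10.69 in KO T0 and 10.99, 11.31 and 11.26 in KO T6. It rose by 0.49 in KO (adjusted p = 0.0356), and its change of 0.35 in WT missed the threshold (adjusted p = 0.109). All 21 genes that rose in WT had a positive change in KO. The KO change minus the WT change was below 0 for 46 of the 76 members, or 60.5%, and for 43.2% of all genes tested. Its median was -0.06 for the members and 0.04 for all genes. With 1 array left out the members' median ran from -0.12 to -0.03. Across the 76 genes the WT and KO changes correlated at r = 0.90 (Spearman's rho 0.81), against 0.84 (0.73) over all genes. Genes are not independent replicates, so this describes the 12 arrays only.

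**Figure D3:**
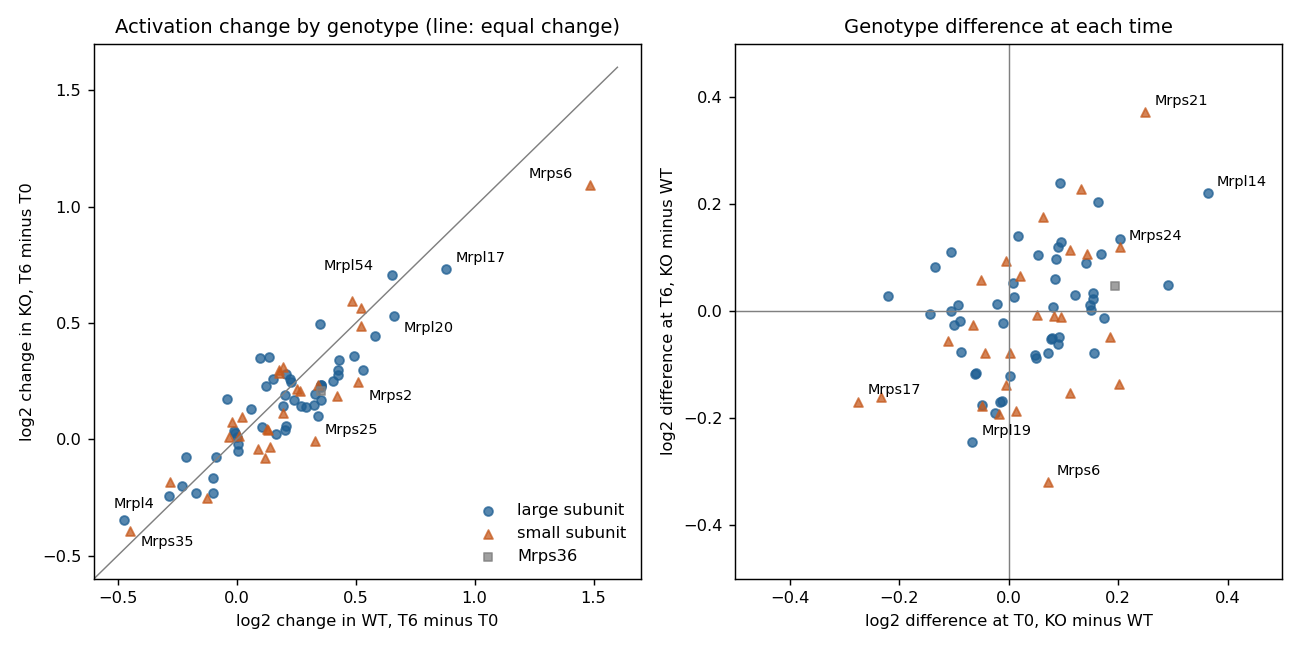
Left, the log2 change on activation in KO against that in WT for the 76 members, with a line at equal change; right, the log2 difference between KO and WT at T6 against that at T0. Circles are large subunit genes, triangles small subunit genes and the square Mrps36. Points on the left follow the line with Mrps6 below it, and on the right all lie between -0.32 and 0.37.

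Between genotypes no member was called at either time. At T0, where 0.038% of all genes were called, 0 of 76 members passed the limma test, and the smallest adjusted p was 0.381. An unadjusted p under 0.05 was found for 3 members and for 1286 of all 13158 genes. The differences ran from -0.28 to 0.36 with a median of 0.05. Without KO T0 replicate 2 the median was 0.01, as for all genes. Without KO T0 replicate 3 it was 0.08. Arrays did not overlap for 8 members, against 16.6% of all genes. Mrpl14 had the smallest p. It read 9.15, 9.13 and 9.11 in WT T0 and 9.50, 9.64 and 9.35 in KO T0, a difference of 0.36 (SE 0.10). Mrps17 read 10.99, 11.06 and 11.03 in WT T0 and 10.69, 10.90 and 10.66 in KO T0, a difference of -0.28 (adjusted p = 0.456). Mrps24 read 11.46, 11.29 and 11.35 in WT T0 and 11.61, 11.63 and 11.48 in KO T0, a difference of 0.20 (adjusted p = 0.508). These 3 genes, counterparts of bacterial L14, S17 and S3, were apart between genotypes at T0 and did not pass the test.

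At T6, where 0.0988% of all genes were called (0.0304% higher and 0.0684% lower in KO), 0 of 76 members passed. The smallest adjusted p by limma was 0.297. An unadjusted p under 0.05 was found for 3 members and for 1549 of all 13158 genes. The differences ran from -0.32 to 0.37 with a median of -0.01, against 0.04 for all genes. Arrays did not overlap for 15 members, against 18.8% of all genes. Mrpl19 read 10.90, 10.80 and 10.83 in WT T6 and 10.58, 10.63 and 10.58 in KO T6, a difference of -0.24 (SE 0.08). Mrps21 read 10.73, 10.88 and 10.86 in WT T6 and 11.35, 11.01 and 11.21 in KO T6, a difference of 0.37 (adjusted p = 0.301). The third was Mrps6, with -0.32 (adjusted p = 0.339). All 3 were apart between genotypes at T6, with Mrpl19 and Mrps6 lower and Mrps21 higher in KO. A dimmer probe set of Mrps21 went the other way, with a mean of 8.47 in WT T6 and 8.37 in KO T6. The dimmer probe sets of Mrpl19 and Mrps6 had lower means in KO T6 than in WT T6. B cell and myeloid markers also differed in one direction here: all 12 tested of each list were higher in KO at both times. Of the myeloid markers 2 were called at T6. The 3 measured erythroid markers were also higher, and all 10 T cell identity markers lower, in KO at both times. The Actb 3′ to 5′ difference lay between 0.45 and 0.54 in WT T6 and between 0.62 and 0.79 in KO T6. The part of these in the genotype differences was not tested.

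The interaction, which tests whether activation acted differently in the genotypes, was called for 0 of 76 members and for 0% of all genes. The smallest adjusted p among the members was 0.9997, and 1 member had an unadjusted p under 0.05, where 604 of 13158 genes did. That member was Mrps6, with a change smaller by 0.39 on the log2 scale in KO (interaction -0.39, SE 0.16). Mrps25, which has no bacterial counterpart, read 9.65, 9.64 and 9.87 in WT T0 and 10.12, 10.14 and 9.88 in WT T6, and 9.74, 10.17 and 9.85 in KO T0 and 9.75, 10.04 and 9.95 in KO T6. Its change was 0.33 in WT and -0.01 in KO. For Mrps2 it was 0.51 in WT (adjusted p = 0.0082) and 0.25 in KO (adjusted p = 0.158), from 10.22, 10.29 and 10.49 to 10.79, 10.91 and 10.81 in WT and from 10.48, 10.54 and 10.30 to 10.82, 10.54 and 10.70 in KO. In both genes the WT times were apart, if narrowly in Mrps25, and the KO times overlapped. A dimmer probe set of Mrps2 changed by -0.19 in WT and -0.01 in KO. Those of Mrps25 changed by 0.11 and -0.41 in WT and by -0.01 and -0.25 in KO.

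Cytosolic ribosomal protein and respiratory chain genes were counted in the same way. Of all genes 11.3% rose and 13.8% fell in WT, and 10.4% rose and 10.4% fell in KO. Among 42 measured cytosolic ribosomal protein genes 0 rose and 0 fell in WT by limma, with 2 at an unadjusted p under 0.05 and a median change of -0.03, and in KO Rps27 alone fell (-0.89). Among 72 genes of the respiratory chain and ATP synthase 6 (8.33%) rose and 3 (4.17%) fell in WT, with a median of 0.08. Both shares are below those of all genes. Uqcrq, a subunit of complex III, rose by 0.73, and Ndufa12, of complex I, by 0.60, while Cox7c, of complex IV, fell by 1.32. In KO 4 of these 72 (5.56%) rose and 3 (4.17%) fell, again below the shares of all genes, with a median of 0.03. Whether the mitochondrial ribosomal genes differ from these groups was not tested.

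**Figure D4:**
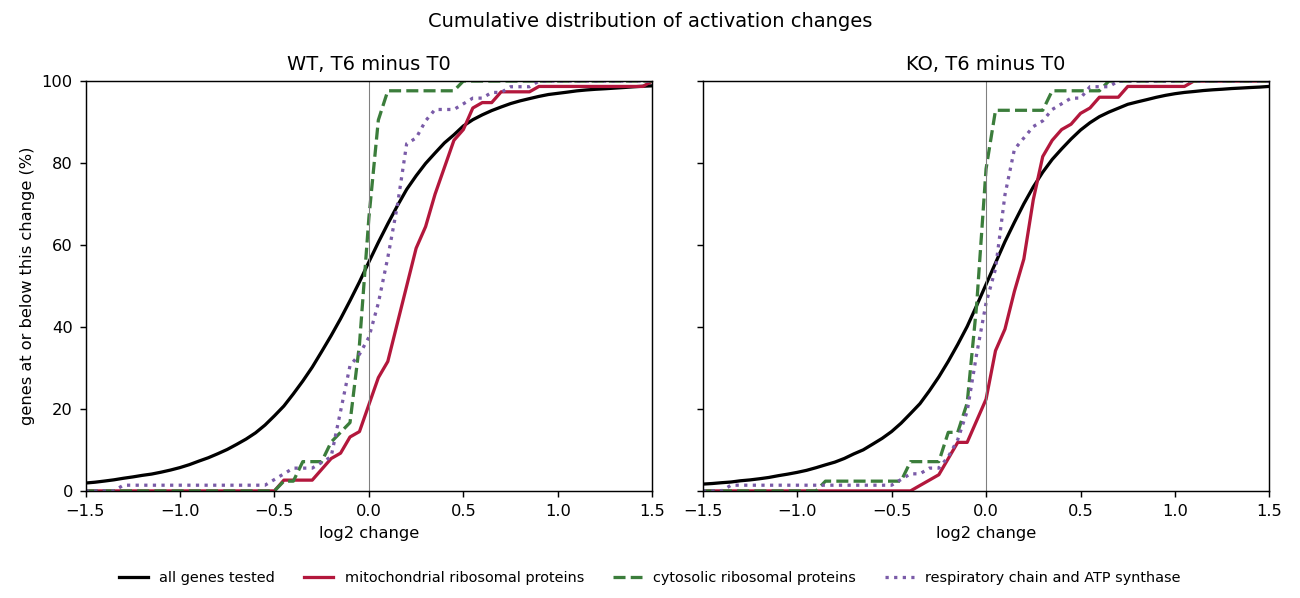
Percent of genes (vertical axis) at or below each log2 change on activation (horizontal axis), in WT and KO, for all genes tested (black), the 76 members (red), 42 cytosolic ribosomal protein genes (green, dashed) and 72 respiratory chain and ATP synthase genes (purple, dotted). The red curve lies to the right of the others around its median of 0.20 in WT and 0.17 in KO, and the green curve is steepest near 0.

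Other genes on which mitochondrial translation depends were counted beside the shares of all genes. In WT 11.3% of all genes rose and 13.8% fell, 25.1% together, and in KO 10.4% rose and 10.4% fell. Of 4 measured mitochondrial ribosomal protein genes under other names Chchd1, which encodes a small subunit protein, rose in WT (0.26) and in KO (0.29). Of 25 genes for ribosome assembly and RNA modification 4 rose and 1 fell in WT, with a median of -0.08. Rcc1l rose by 0.77, the RNA helicase gene Ddx28 by 0.65, the methyltransferase gene Nsun4 by 0.50 and the pseudouridine synthase gene Trub2 by 0.46, and the methyltransferase gene Mrm2 fell by 0.57. In KO Nsun4 (0.78) and Trub2 (0.61) rose. Of 13 measured translation factor genes Mrrf, for ribosome recycling (0.45), and Pdf, which removes the formyl group from new chains (0.46), rose in WT, and in KO Gfm2, for a recycling factor, fell by 0.37.

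Of 18 genes for mitochondrial transcription and RNA maintenance 5 (27.8%) rose and 2 (11.1%) fell in WT, with a median of 0.04. Among all genes 11.3% rose and 13.8% fell. Elac2, which trims the 3′ ends of tRNAs, rose by 0.70, the elongation factor gene Tefm by 0.60, Slirp, for a protein that stabilises mitochondrial messages, by 0.59, the helicase gene Supv3l1 by 0.47 and Lrpprc, the partner of Slirp, by 0.26. Mterf2 fell by 0.53 and Polg, for the mitochondrial DNA polymerase, by 0.36. In KO Elac2 (0.93), Prorp, which trims the 5′ ends of tRNAs (0.58), Supv3l1 (0.47) and Slirp (0.44) rose. These were 22.2% of the list, where 10.4% of all genes rose. None of the genes in these 4 lists was called between genotypes or in the interaction.

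The members' promoters were searched for the letters of 6 known motifs. RefSeq sequence of GRCm38.p6 from 250 bases before to 50 after a gene's start was at hand for 67 of the 76 genes, in 73 windows. The largest rises with a window are shown, 5′ to 3′ on the gene's strand, to let the letters around their starts be read. Capitals mark motif matches on either strand: the GC box GGGCGG, the ETS motif CCGGAAG and the E-box CACGTG, each also as its reverse complement.
Mrps6, chr16:92058086-92058385, plus strand: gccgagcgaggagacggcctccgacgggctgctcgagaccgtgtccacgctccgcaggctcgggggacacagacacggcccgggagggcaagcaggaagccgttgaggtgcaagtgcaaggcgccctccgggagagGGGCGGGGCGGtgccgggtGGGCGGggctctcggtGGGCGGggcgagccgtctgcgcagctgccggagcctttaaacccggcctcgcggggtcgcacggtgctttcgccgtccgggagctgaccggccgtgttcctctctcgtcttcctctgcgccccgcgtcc
Mrpl17, chr7:105811038-105811337, minus strand: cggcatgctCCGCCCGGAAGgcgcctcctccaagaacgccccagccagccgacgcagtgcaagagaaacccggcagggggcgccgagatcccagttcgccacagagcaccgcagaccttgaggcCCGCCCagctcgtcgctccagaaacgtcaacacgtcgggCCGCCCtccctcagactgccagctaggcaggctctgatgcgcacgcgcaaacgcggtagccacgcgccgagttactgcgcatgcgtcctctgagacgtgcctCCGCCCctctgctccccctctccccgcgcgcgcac
Mrpl20, chr4:155802628-155802927, plus strand: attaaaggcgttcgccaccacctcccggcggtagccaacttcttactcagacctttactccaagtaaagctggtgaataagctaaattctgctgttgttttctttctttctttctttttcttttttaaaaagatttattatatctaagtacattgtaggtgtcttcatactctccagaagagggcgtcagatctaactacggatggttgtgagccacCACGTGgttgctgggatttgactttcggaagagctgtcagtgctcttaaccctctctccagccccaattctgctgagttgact
Mrpl21, chr19:3282792-3283091, plus strand: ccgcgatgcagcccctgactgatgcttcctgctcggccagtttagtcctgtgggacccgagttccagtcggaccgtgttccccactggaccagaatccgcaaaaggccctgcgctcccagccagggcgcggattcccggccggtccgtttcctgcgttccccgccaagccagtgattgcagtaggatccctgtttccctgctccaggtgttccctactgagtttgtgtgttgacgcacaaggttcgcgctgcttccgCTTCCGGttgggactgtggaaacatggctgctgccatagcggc
Mrpl47, chr3:32736706-32737005, minus strand: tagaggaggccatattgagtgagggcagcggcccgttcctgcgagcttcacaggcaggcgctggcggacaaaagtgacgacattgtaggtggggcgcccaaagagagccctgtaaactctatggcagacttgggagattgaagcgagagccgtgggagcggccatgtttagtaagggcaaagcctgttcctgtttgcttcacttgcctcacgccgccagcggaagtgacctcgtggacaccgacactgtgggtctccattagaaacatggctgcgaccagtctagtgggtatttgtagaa
Mrps6 held 4 GC boxes, the first 2 of which overlap. Mrpl17 held 4 GC boxes and 1 ETS motif that overlaps the first of them. Mrpl20 held 1 E-box, Mrpl21 held 1 ETS motif just after its start, and Mrpl47 held none of the 6.

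The ETS motif was in 25 of the 73 members' windows (34.2%), in 16.1% of the 13542 windows of all tested genes and in 8.86% of all 32851 windows in the table. The YY1 motif AAGATGGCG was in 8 windows (11.0%), against 2.70% and 1.40%. The NRF1 motif, a palindrome of 10 letters, was in 3 (4.11%), against 1.90% and 0.971%. The E-box, a motif of MYC among other factors, was in 7 (9.59%), against 9.57% and 7.15%. The GC box was in 39 (53.4%), against 59.0% and 35.7%. The sterol regulatory element TCACNCCAC, a motif of SREBP, was in 0, against 1.23% and 1.24%. All were searched on both strands, and a match is a description and not a site. Median GC content was 58.7% in the members' windows and 60% in those of tested genes.

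Among the members, matches did not follow the call in a single direction. The ETS motif was in 33.3% of the 18 windows of genes that rose in WT and in 34.5% of the other 55. The YY1 motif was in 16.7% and 9.09%, and the GC box in 33.3% and 60%. With 18 windows, 1 window is a large share, and no test was made. The members lie on 17 chromosomes. Mrpl3, Mrpl4 and Mrps22 lie on chromosome 9, as Scap does. With chromosome 9 genes left out, and so without Mrpl4, 21 members rose and 1 fell in WT, where 11.4% of all genes rose. The annotation gives an overlapping gene for 24 of the 76 members, among them 9 of the 21 that rose in WT.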

How the data were processed

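RNA abundance was measured on 12 Affymetrix arrays, 3 for each of 4 groups. The deposited values are linear signal intensities, made by the authors with GCOS per the labels. How background was removed is not given in the sources used here. The mean between percentiles 2 and 98 was alike on all arrays, so arrays had been scaled, and no normalization was added. Of 45101 probe sets 64 were controls, and of the rest 34945 named 1 gene in GEO's platform annotation, 932 several and 9160 none. Intensities were taken as log2(signal + 16), which understates changes of dim genes. The brightest probe set stood for a gene, kept if 3 or more arrays had it above their percentile 40.

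limma 3.58.1 in R 4.3.3 (lmFit, eBayes, two-sided) was fitted to 13158 genes on all 12 arrays with 4 group coefficients and Benjamini-Hochberg adjustment. The number of arrays limits precision. Labels call arrays biological replicates, and which T0 and T6 arrays share a mouse is not stated. After subtraction of group means, same-numbered arrays correlated at 0.23, -0.06 and -0.11 in WT and at 0.18, 0.46 and 0.38 in KO. Every same-numbered pair thus deviated together in KO but not in WT, and with no pairing stated the numbers block only an alternative fit.

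Arrays are listed for the 8 largest rises and the falls in WT with groups apart, the Mrps18 family, and the 3 smallest p of each genotype comparison. Mrpl3 was named after its values were seen. The members, lists, motifs and this rule were chosen with earlier results of these data known, and the cytosolic ribosomal and respiratory chain lists and the fits without KO replicate 2 and with a block in KO only after seeing the data. Alternatives were the added constant, filter, probe set rule, normalization, variance model, array weights, covariates, replicate block, chromosome 9 and leaving out arrays. Protein sequences were not used here.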

Additional observations from a re-analysis of the deposited data

How the results depend on the processing

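Under the alternatives no count of members called between genotypes or in the interaction left 0, and no named gene reversed. Of 931 values of named genes under an alternative 853 stayed on their side of the threshold in the same direction, 70 lost the call and 8 gained it. The 21 rises in WT became 28 with median centring and 13 when all probe sets of a gene were averaged. They became 6 with the RNA quality covariate and 1 with the composition covariate, and leaving out 1 array gave 16 to 23. Among all genes, where 11.3% rose in the main fit, the shares were 14.5%, 10.5%, 4.94% and 0.547% in the same order. With 1 array left out the share of all genes ran from 8.19% to 12.1%. The 2 falls in WT became 4 with quantile normalization or array weights and 0 with median centring or either covariate. Without chromosome 9 genes 1 fall remained, because Mrpl4 itself lies there and was left out. Leaving out 1 array gave 1 to 3 falls. The 12 rises in KO became 18 with array weights, 17 with the filter at percentile 60 and 16 with a trended robust fit. They became 8 without the filter and 6 with only the groups of the comparison. They became 1 with the RNA quality covariate and 0 with the composition covariate, and leaving out 1 array gave 6 to 15. Among all genes 10.4% rose in the main fit. Under these settings 12.7%, 15.7%, 11.5%, 6.31%, 6.98%, 0.836% and 1.02% rose in the same order. With 1 array left out the share of all genes ran from 7.22% to 10.8%. The 1 fall in KO became 0 without the filter, with median centring, with only the groups of the comparison, with either covariate and without both KO replicate 2 arrays, and leaving out 1 array gave 0 to 2. With a replicate block 20 members rose and 2 fell in WT and 11 rose and 1 fell in KO. With the block in KO only, an alternative chosen after seeing the data, 12 rose and 2 fell in KO. The shares of all genes that rose were 11.1%, 10.2% and 11.3% in the same order. Mrps6 kept its WT call in 28 of 28 alternatives (adjusted p up to 0.0437), Mrpl4 in 20 of 27 and Mrps35 in 25 of 28. Apart from the removal of Mrpl4 with chromosome 9, the cause of the losses under the alternatives was not tested.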

Other observations

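Probe sets that name a member together with another gene were left out of the comparisons, and there were 4. The one for Nme3 and Mrps34 had a mean log2 signal of 9.44 in WT T0 and 8.64 in WT T6, a change of -0.80, and of -0.57 in KO. Of the pair for Gm6238 and Mrpl30, 1 went from 13.19 to 13.28 in WT and the other was dim, at 5.41 in WT T0. The one for Ccdc142 and Mrpl53 went from 10.22 to 10.23. None of these was tested.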
